A study of Rattus norvegicus with 12 samples.

Results

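The Slc25 genes encode the mitochondrial carriers, the largest family of solute transporters of the inner mitochondrial membrane. Their members here were the rows of the deposited gene table whose symbol begins with Slc25a and a digit, without regard to case and with 1 symbol left out, which gave 46 of 26312 genes. Of these, 41 had enough reads to enter the test, which covered 15697 genes. The measurements were total gene reads, exon reads and RPKM (exon reads scaled to the exon length and to the library's gene reads) from RNA sequencing of whole rat uterus. Levels of gene reads are given as CPM, counts scaled to the size of each library with TMM factors. All animals were ovariectomised females of 10 weeks that had rested for 2 weeks, and all uteri were taken 9 h after injection. The 4 groups, each of 3 animals, were Holtzman Sprague Dawley (HSD, an outbred stock) given sesame oil, HSD given progesterone subcutaneously at 40 µg per gram of body weight, and Brown Norway (BN, an inbred strain) given the same oil or the same progesterone. All 4 groups thus lacked ovaries. Each comparison of treatments asks which carriers differ at 9 h between progesterone and oil within a strain, and each comparison of strains asks which differ between BN and HSD under one treatment.

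Carriers of this family are small proteins of the inner membrane that swing between a state open to the cytosol and a state open to the matrix, moving one metabolite in, often in exchange for another going out. They pass ADP, ATP and phosphate for oxidative phosphorylation, acids of the citric acid cycle, amino acids, cofactors and their precursors, iron and nucleotides, while the branch of the uncoupling proteins includes members that let protons or anions through. Progesterone prepares the uterus for implantation, quietens the muscle layer and drives the stroma towards decidualisation.

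In HSD 12 of the 41 tested carriers rose with progesterone and 6 fell (edgeR quasi-likelihood test, adjusted p below 0.05), against 20.3% higher and 18.7% lower among all genes tested. In BN 10 rose and 5 fell, against 14.0% higher and 11.8% lower among all genes tested. The called share in either direction was thus 43.9% of the carriers in HSD and 36.6% in BN, beside 6133 and 4045 of all 15697 genes tested. The median log2 change over the tested carriers was 0.20 in HSD and 0.14 in BN, beside -0.02 and -0.01 for all genes tested. The same 8 genes were called higher in both strains (Slc25a5, Slc25a22, Slc25a30, Slc25a32, Slc25a33, Slc25a38, Slc25a46 and Slc25a48), and the same 5 lower (Slc25a23, Slc25a27, Slc25a28, Slc25a42 and Slc25a45). Slc25a3, Slc25a4, Slc25a11 and Slc25a25 were called higher and Slc25a17 lower in HSD alone, and Slc25a24 and Slc25a29 higher in BN alone, but no carrier passed the test of the strain difference itself. No carrier was called in opposite directions, and 21 were called in neither strain.

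Carriers of both directions were called among those for ATP-Mg and phosphate, for cofactors, in the uncoupling protein branch and among those of unsettled substrate, in HSD and in BN. Here and below, libraries were left out 1 at a time, also where several are named for a lost call. The BN count of carriers changed when single libraries were left out, falling from 15 to 7 without BN oil replicate 3 and to 8 without BN progesterone replicate 1 or replicate 2. Over all genes tested the BN calls fell as well, from 4045 to 2606, 2773 and 2923 in these settings. Scaling also moved the split: with library size alone the calls were 9 higher and 7 lower in HSD and 8 higher and 6 lower in BN, and with upper quartile scaling 7 higher and 6 lower in BN. Library size alone shifted the median log2 change of all genes in HSD from -0.02 to -0.14. Over all genes tested it gave 2355 higher and 4034 lower in HSD, where TMM gave 3193 and 2940. In BN it gave 1919 and 2080, and upper quartile scaling 1759 and 2251, where TMM gave 2196 and 1849. In these whole uteri a lower value can mean fewer cells of a type or less RNA per cell, which cannot be told apart.

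**Figure D1:**
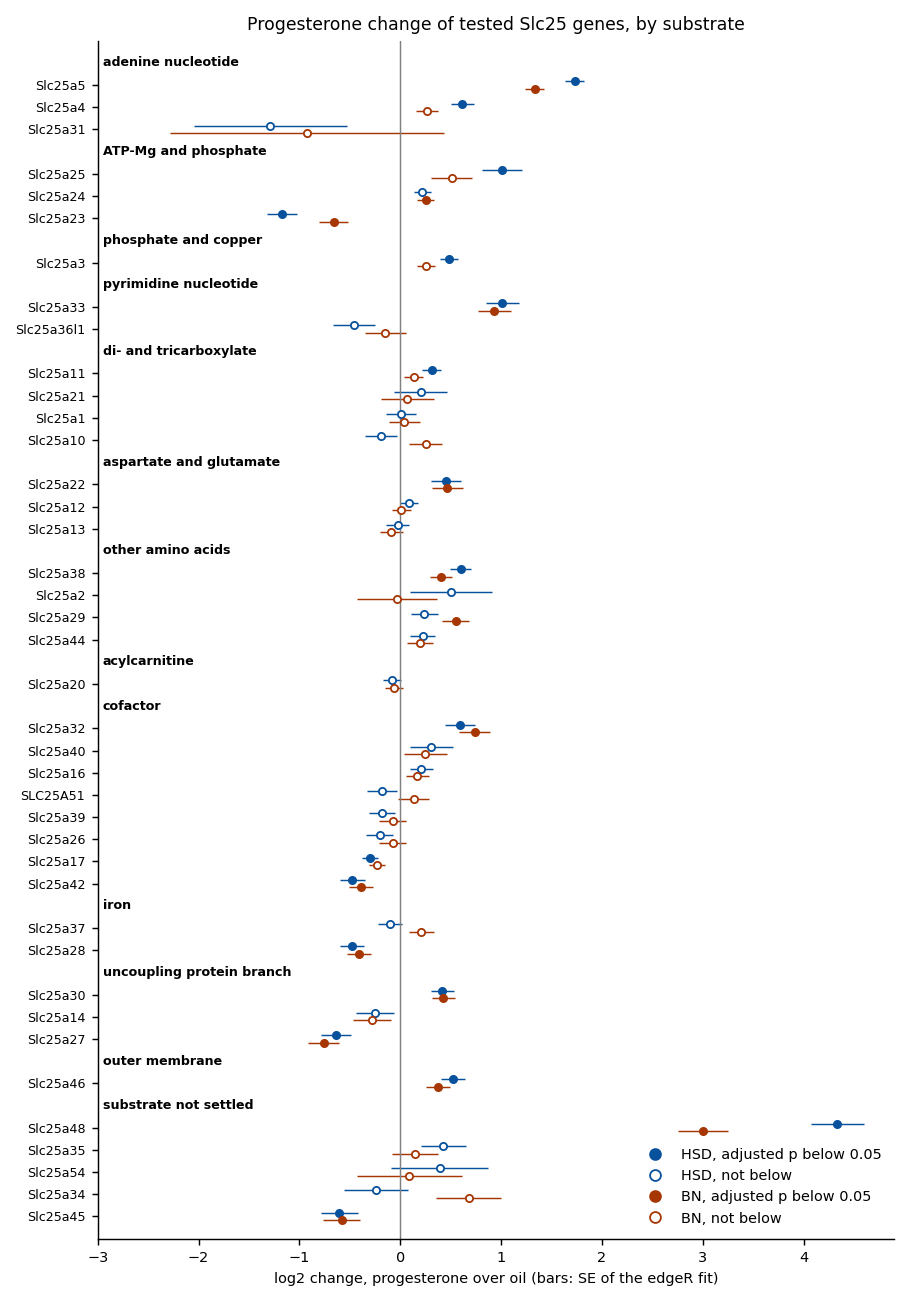
Log2 change from oil to progesterone (x axis) for the tested Slc25 genes reported here, grouped by substrate (y axis), in HSD (blue) and BN (brown), with the SE of the edgeR fit as bars and filled points for adjusted p below 0.05. Slc25a48 and Slc25a5 lie farthest to the right in both strains and Slc25a23 and Slc25a27 farthest to the left among filled points.

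Slc25a48 showed the largest change of the family in both strains. Its substrate is counted here as unsettled, although in human cells it has been linked to uptake of choline by mitochondria. Normalised levels were 5.78, 4.94 and 3.86 CPM with oil and 96.7, 76.02 and 122 with progesterone in HSD, and 11.6, 9.78 and 6.88 with oil and 59.7, 97.7 and 70.9 with progesterone in BN. Every progesterone library stood far above every oil library, and the oil libraries of BN all lay above those of HSD. The log2 change was 4.33 (SE 0.26, adjusted p = 2.47e-07) in HSD, a 20.2-fold rise, and 3.002 (SE 0.25, adjusted p = 7.2e-06) in BN, an 8.01-fold rise. By size of log2 change this was the 35th highest of 15697 genes in HSD and the 53rd highest in BN. On the per-length scale the mean rose from 1.96 ± 0.149 RPKM (SD, n = 3) to 51.1 ± 8.96 in HSD and from 4.5 ± 1.18 to 39.9 ± 13.2 in BN, which took the gene from 0.214% to 4.15% of the summed Slc25 RPKM in HSD and from 0.501% to 3.51% in BN. Of its reads 51.2% lay in introns; exon reads alone gave log2 changes of 4.80 and 3.17 (adjusted p = 1.92e-07 and 7.2e-06). The change was -1.33 on the log2 scale in BN relative to HSD (SE 0.34, adjusted p = 0.283); DESeq2 called this strain difference (-1.35, adjusted p = 0.0229), and edgeR did not.

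The RefSeq window around the start of Slc25a48 on build GRCr8, chr17:8166750-8167049 (minus strand), is shown because it differs in makeup from nearly all others and holds 3 copies of the E-box letters CACGTG, in capitals, first bases at -145, -87 and 10 from the start. The other windows printed below likewise run 5′ to 3′ from 250 bases before the start to 50 after it, with matches to the searched motifs in capitals.
Slc25a48: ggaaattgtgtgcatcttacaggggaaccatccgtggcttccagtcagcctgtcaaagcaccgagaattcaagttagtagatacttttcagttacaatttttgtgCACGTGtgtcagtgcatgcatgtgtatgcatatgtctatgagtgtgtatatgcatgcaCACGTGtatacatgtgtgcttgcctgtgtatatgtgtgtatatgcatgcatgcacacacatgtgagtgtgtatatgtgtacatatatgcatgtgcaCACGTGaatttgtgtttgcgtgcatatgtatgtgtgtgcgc
At least 3 copies occurred in 19 of 33469 windows (0.0568%). Runs of 10 or more bases in which purines and pyrimidines alternate made up 58.3% of this window, and only 2 of the 33469 windows, this one included, held as much. The E-box letters are themselves such an alternation, and the 3 copies lie among these runs. Among the other 37 carriers with a window the share in such runs was at most 4.33%.

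**Figure D2:**
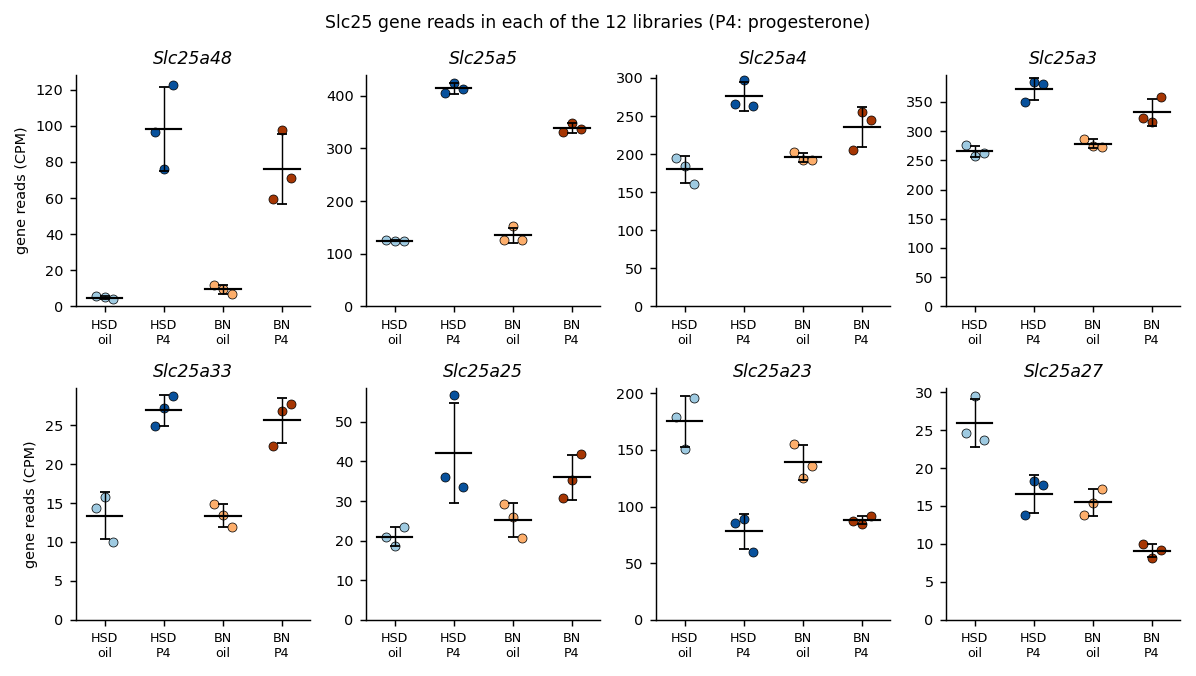
Gene reads in CPM (y axis, from 0) for 8 carriers in each of the 12 libraries, with points for animals, lines for group means and bars for SD (n = 3). Slc25a48, Slc25a5 and Slc25a33 rise and Slc25a23 and Slc25a27 fall in both strains, without overlap between oil and progesterone within a strain.

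The adenine nucleotide carriers exchange cytosolic ADP for ATP made in the matrix, and Slc25a4 and Slc25a5 are 2 of the 3 most abundant members per length here. Slc25a5, the isoform of proliferating and many other tissues, had 126, 124 and 124 CPM with oil and 404, 425 and 413 with progesterone in HSD, and 126, 152 and 126 with oil and 331, 348 and 337 with progesterone in BN. Each group was tight, and progesterone libraries were all higher than oil libraries. Slc25a5 rose by a log2 of 1.73 (SE 0.10, adjusted p = 1.39e-07) in HSD, 3.32-fold, and 1.33 (SE 0.10, adjusted p = 2.69e-06) in BN, 2.52-fold. Slc25a4, the isoform dominant in heart and skeletal muscle, had 194, 185 and 160.2 CPM with oil and 266, 298 and 263 with progesterone in HSD, and 203, 193 and 192 with oil and 205, 255 and 245 with progesterone in BN. Its progesterone libraries lay above its oil libraries in both strains, but by little in BN. Slc25a4 rose in HSD, with a log2 change of 0.62 (SE 0.11, adjusted p = 0.000819), and was not called in BN, at 0.26 (SE 0.11, adjusted p = 0.0961). The strain difference of the change had an unadjusted p under 0.05 but was not called for either gene, at -0.40 (SE 0.13, adjusted p = 0.487) for Slc25a5 and -0.35 (SE 0.15, adjusted p = 0.658) for Slc25a4.

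Per length the order of this pair turned over. Slc25a5 stood at 98.8 ± 1.89 RPKM (SD, n = 3) and Slc25a4 at 138 ± 14.3 in HSD with oil, against 304 ± 13.9 and 194 ± 17.6 with progesterone. The BN means were 107 ± 12.5 and 149 ± 2.69 with oil, then 263 ± 7.77 and 174 ± 20.6 with progesterone. Slc25a5 made up 40.3%, 41.1% and 44.3% of the pair's RPKM in the HSD oil libraries and 61.4%, 59.9% and 62% with progesterone. In BN its share was 39.4%, 45.2% and 40.8% with oil and 62.9%, 58.8% and 59.2% with progesterone. Progesterone libraries thus all held more Slc25a5 than Slc25a4 and oil libraries all held less, a difference in mean share of 19.2 percentage points in HSD and 18.5 in BN. An exact two-sided permutation test gave p = 0.1 for each, the smallest that 3 against 3 allows. The other members of the group were barely read: Slc25a31, a testis isoform, ranged over 0.0527 to 2.36 CPM with 99.1% of reads in introns, and Slc25a6 over 0 to 0.087, too few to test.

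The windows of the pair are printed together for comparison. That of Slc25a5 lies at chrX:120897366-120897665 (plus strand) and that of Slc25a4 at chr16:52805271-52805570 (plus strand).
Slc25a5: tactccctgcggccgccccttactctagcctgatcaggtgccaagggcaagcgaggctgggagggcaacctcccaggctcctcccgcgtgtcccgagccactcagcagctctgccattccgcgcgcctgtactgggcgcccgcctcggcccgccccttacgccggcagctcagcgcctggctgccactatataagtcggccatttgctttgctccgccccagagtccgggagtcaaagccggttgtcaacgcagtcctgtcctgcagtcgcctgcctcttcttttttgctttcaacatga
Slc25a4: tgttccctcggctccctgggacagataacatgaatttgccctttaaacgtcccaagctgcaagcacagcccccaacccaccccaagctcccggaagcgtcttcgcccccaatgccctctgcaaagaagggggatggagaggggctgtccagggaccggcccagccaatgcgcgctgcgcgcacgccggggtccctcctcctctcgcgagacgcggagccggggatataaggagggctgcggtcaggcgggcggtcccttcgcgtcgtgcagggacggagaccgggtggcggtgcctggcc
Neither held any of the motifs searched, and G and C made up 64.0% of the first and 67.3% of the second, beside a median of 60.3% over the 38 carriers with a window and 51.7% over all windows.

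**Figure D3:**
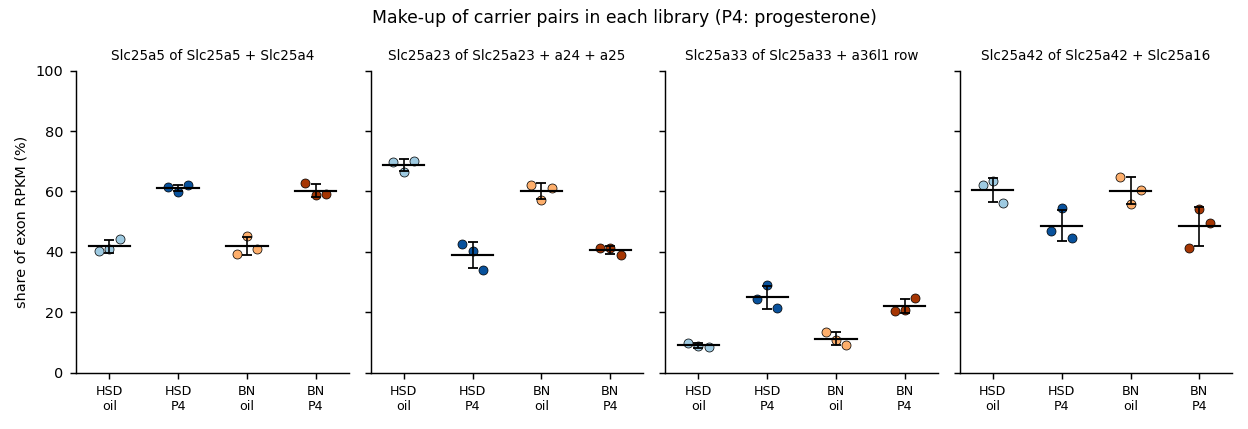
Share of exon RPKM (y axis, percent) held by 1 member of a group of carriers for the same substrate in each library, with points for animals, lines for means and bars for SD (n = 3). With progesterone the share of Slc25a5 and of Slc25a33 is higher and that of Slc25a23 lower, without overlap in either strain.

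Slc25a3 brings phosphate, and in mammalian cells also copper, into the matrix, and was the most abundant carrier averaged over the 4 groups. Its levels were 276, 258 and 262 CPM with oil and 350.4, 384 and 381 with progesterone in HSD, and 287, 275 and 273 with oil and 323, 315 and 358 with progesterone in BN. The groups did not overlap within either strain. It rose in HSD by 0.49 (SE 0.09, adjusted p = 0.00117) and was not called in BN, at 0.25 (SE 0.09, adjusted p = 0.0568). Per length it went from 173 ± 11.4 to 221 ± 17.5 RPKM (SD, n = 3) in HSD and from 183 ± 2.56 to 208 ± 17.8 in BN.

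Among the ATP-Mg and phosphate carriers, which are gated by calcium and set the size of the matrix adenine nucleotide pool, the 3 measured genes parted ways. Slc25a23 had 179, 151 and 196 CPM with oil and 85.4, 88.5 and 60.2 with progesterone in HSD, and 155, 126 and 136 with oil and 87.1, 84.6 and 91.6 with progesterone in BN. All progesterone libraries lay well below all oil libraries. It fell by 1.17 on the log2 scale in HSD (SE 0.15, adjusted p = 6.73e-05), 2.25-fold lower, and the BN change was -0.66 (SE 0.15, adjusted p = 0.00567). Slc25a25 had 21, 18.6 and 23.3 CPM with oil and 36.1, 56.7 and 33.5 with progesterone in HSD, and 29.2, 25.9 and 20.6 with oil and 30.8, 35.3 and 41.95 with progesterone in BN. Both strains were higher with progesterone without overlap, and HSD progesterone replicate 2 was the highest library. Slc25a25 rose in HSD, by 1.01 (SE 0.20, adjusted p = 0.00182), and was not called in BN, at 0.51 (SE 0.20, adjusted p = 0.0823). Slc25a24 had 59.9, 59.1 and 64.4 CPM with oil and 74.2, 69.97 and 68.9 with progesterone in HSD, and 69.8, 72.9 and 70.7 with oil and 85.8, 78.3 and 90.02 with progesterone in BN, with small shifts that did not overlap. It was not called in HSD, at 0.22 (SE 0.09, adjusted p = 0.0595), and was called higher in BN, at 0.25 (SE 0.09, adjusted p = 0.0444); that call was lost without HSD oil replicates 1, 2 and 3, HSD progesterone replicates 1 and 2, BN oil replicates 1, 2 and 3 or BN progesterone replicates 1 and 3 (adjusted p from 0.0588 to 0.208). It was lost in 17 of 23 alternatives, among them other scalings, unique reads and log2 RPKM. Slc25a41, whose gene starts 1.25 kb beyond the end of Slc25a23 on the same strand, ranged over 0 to 0.112.

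The makeup of this trio changed with treatment. Slc25a23 held 68.8% ± 2.02 of the trio's RPKM (SD, n = 3) in HSD with oil and 39% ± 4.4 with progesterone, and 60.1% ± 2.67 and 40.5% ± 1.32 in BN. The share of Slc25a24 went from 22% ± 1.52 to 36% ± 5.15 in HSD and from 28% ± 2.4 to 39.6% ± 1.41 in BN. Slc25a25 went from 9.13% ± 0.505 to 25% ± 3.84 and from 11.9% ± 1.49 to 19.9% ± 2.27. With oil Slc25a23 was the main form of the trio, and with progesterone it and Slc25a24 were about equal. The window of Slc25a25, at chr3:36116532-36116831 (minus strand), is shown because it is 1 of 2 carrier windows with the full letters of a cyclic AMP response element, in capitals, first base at -158.
Slc25a25: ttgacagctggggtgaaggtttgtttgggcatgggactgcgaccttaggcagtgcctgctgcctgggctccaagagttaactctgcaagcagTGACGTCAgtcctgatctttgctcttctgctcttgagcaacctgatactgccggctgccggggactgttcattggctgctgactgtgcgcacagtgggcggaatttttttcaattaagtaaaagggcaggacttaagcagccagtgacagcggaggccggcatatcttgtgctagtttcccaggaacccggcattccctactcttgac

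Summed over the family, exon RPKM was 911.9 ± 40.9 (SD, n = 3) in HSD with oil and 1238 ± 67.8 with progesterone, and 897.4 ± 5.62 and 1131 ± 57.4 in BN. The groups did not overlap within a strain (exact two-sided permutation p = 0.1, the smallest possible). The adenine nucleotide carriers took 25.9% ± 0.766 of the sum in HSD with oil and 40.2% ± 0.373 with progesterone, and 28.6% ± 1.23 and 38.6% ± 0.955 in BN. The share of the cofactor carriers was 15.1% ± 0.191 and 10.3% ± 0.231 in HSD, and 14.6% ± 0.289 and 11.2% ± 0.211 in BN. The ATP-Mg carriers held 7.82% ± 1.23 and 3.85% ± 0.597 in HSD. Shares sum to the whole, so a rise in one lowers others without any change in their reads.

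**Figure D4:**
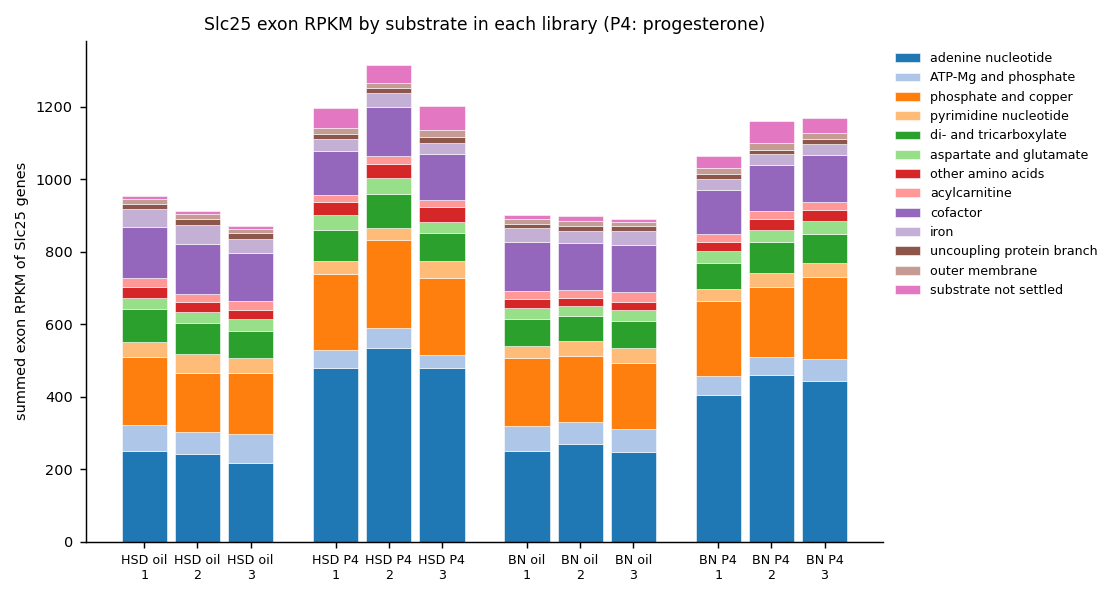
Exon RPKM summed over the Slc25 genes of each substrate (stacked bars, y axis from 0) in each of the 12 libraries, in 4 groups of 3 animals. The progesterone bars reach 1065 to 1316 and the oil bars 871.4 to 953.1, with most of the added height in the adenine nucleotide carriers.

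Slc25a33 and Slc25a36 carry pyrimidine nucleotides into mitochondria, where they serve the synthesis of mitochondrial DNA and RNA. Slc25a33 had 14.3, 15.8 and 10.01 CPM with oil and 24.9, 27.2 and 28.8 with progesterone in HSD, and 14.8, 13.5 and 11.9 with oil and 22.4, 26.9 and 27.7 with progesterone in BN, and progesterone libraries were all higher. It rose by 1.01 (SE 0.16, adjusted p = 0.000426) in HSD and 0.93 (SE 0.17, adjusted p = 0.00148) in BN, 2.01-fold and 1.91-fold. The row named Slc25a36l1 had 99.1, 129.9 and 119.5 CPM with oil and 73.7, 63.3 and 117 with progesterone in HSD, and 72.7, 94.7 and 107 with oil and 78.8, 91.97 and 77.3 with progesterone in BN. Its groups overlapped in both strains, with HSD progesterone replicate 3 well above the other treated HSD libraries. It was not called, at -0.46 (SE 0.21, adjusted p = 0.098) in HSD and -0.15 (SE 0.21, adjusted p = 0.652) in BN. This row may hold Slc25a36 itself: of the names of its 12 flanking rows, 5 also flank Slc25a36 in the reference gene table and 0 flank the gene that the reference calls Slc25a36l1. Slc25a33 held 9.09% ± 0.759 of the RPKM of both rows (SD, n = 3) in HSD with oil and 24.9% ± 3.89 with progesterone, and 11.2% ± 2.11 and 22% ± 2.27 in BN.

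The window of Slc25a33, at chr5:165502924-165503223 (minus strand), held both a cyclic AMP response element at -84 and an E-box at -61, in capitals.
Slc25a33: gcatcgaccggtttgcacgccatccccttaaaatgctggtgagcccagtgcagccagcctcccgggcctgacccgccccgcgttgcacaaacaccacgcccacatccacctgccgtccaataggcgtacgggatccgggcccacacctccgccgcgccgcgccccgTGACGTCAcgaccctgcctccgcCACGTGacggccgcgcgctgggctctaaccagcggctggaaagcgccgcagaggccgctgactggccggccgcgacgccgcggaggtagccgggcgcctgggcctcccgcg
It was the only carrier window with 2 different motifs of those searched apart from that of Slc25a31, which held an E-box and the NRF1 letters. G and C made up 72.7% of it.

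The carriers of di- and tricarboxylates link the citric acid cycle with the cytosol. Slc25a11, the oxoglutarate and malate exchanger, had 73.1, 72.4 and 64.5 CPM with oil and 83.6, 92.2 and 84.4 with progesterone in HSD, and 70.4, 72.4 and 71.8 with oil and 71.2, 81.01 and 82.6 with progesterone in BN, with no overlap in HSD and some in BN. It rose in HSD by 0.31 (SE 0.09, adjusted p = 0.0167) and was not called in BN, at 0.13 (SE 0.09, adjusted p = 0.323); the HSD call was lost without HSD oil replicate 3 (adjusted p = 0.0644). That call was also lost with library size alone, with upper quartile scaling and with only the 2 groups compared. On log2 RPKM with a pseudocount of 0.1 or 1 it was lost too. Per length Slc25a11 was the fourth carrier of the uterus, at 44.5 ± 3.15 to 51.5 ± 3.9 RPKM (SD, n = 3) in HSD. Slc25a10, which exchanges malate or succinate for phosphate, had 51.1, 53.4 and 40.8 CPM with oil and 43.9, 43.9 and 39.7 with progesterone in HSD, and 34.1, 26.4 and 35.1 with oil and 29.2, 42.2 and 42.3 with progesterone in BN. Oil and progesterone libraries overlapped in both strains, and its change was -0.19 (SE 0.16, adjusted p = 0.375) in HSD and 0.25 (SE 0.16, adjusted p = 0.283) in BN. Slc25a1, the citrate carrier that supplies acetyl units for lipid synthesis, ranged over 21.03 to 35.9 and changed by 0.01 (SE 0.15, adjusted p = 0.966) in HSD and 0.04 (SE 0.15, adjusted p = 0.883) in BN. Slc25a21, an oxodicarboxylate carrier, ranged over 2.99 to 6.17 with 96.0% of reads in introns, and was not called in either strain.

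Aspartate leaves and glutamate enters the matrix through Slc25a12 and Slc25a13, the calcium-regulated carriers of the malate and aspartate shuttle. Slc25a12 had 46.3, 48.8 and 46.1 CPM with oil and 51.4, 53.5 and 45.1 with progesterone in HSD, and 40.2, 38.8 and 36.8 with oil and 38.8, 40.5 and 37.4 with progesterone in BN. Treatment groups overlapped within each strain, and all BN libraries lay below all HSD libraries. Its change was 0.09 (SE 0.09, adjusted p = 0.483) in HSD and 0.01 (SE 0.09, adjusted p = 0.948) in BN. Slc25a13 is best read from its exons, since 97.6% of its reads lay in introns, only 33.5% were placed uniquely, and Col1a2, a collagen gene with a mean of 748.0 CPM, overlaps it on the other strand while no source says whether counting used strand. Exon reads of Slc25a13 were 12.7, 10.4 and 13.5 CPM with oil and 14, 11.8 and 12.7 with progesterone in HSD, and 8.06, 8.51 and 11.2 with oil and 8.22, 9.45 and 8.59 with progesterone in BN, overlapping between treatments. Exon reads gave log2 changes of 0.05 in HSD (adjusted p = 0.831) and -0.09 in BN (adjusted p = 0.745); total gene reads ran over 400.1 to 548 and gave -0.03 (SE 0.11, adjusted p = 0.874) and -0.09 (SE 0.11, adjusted p = 0.615).

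Glutamate enters with a proton through Slc25a22 and Slc25a18. Slc25a22 had 41.9, 51.5 and 44.2 CPM with oil and 73.6, 67.1 and 47.8 with progesterone in HSD, and 48.02, 39.1 and 42.1 with oil and 59.2, 54.7 and 64.7 with progesterone in BN. Progesterone libraries were higher in BN without overlap, but HSD progesterone replicate 3 lay among the HSD oil libraries. It rose in HSD by 0.45 (SE 0.15, adjusted p = 0.031) and in BN by 0.47 (SE 0.15, adjusted p = 0.0386). The HSD call was lost without HSD oil replicates 1 and 3 or HSD progesterone replicates 1 and 2 (adjusted p from 0.064 to 0.129), and the BN call was lost without HSD oil replicate 3, BN oil replicates 2 and 3 or BN progesterone replicates 1, 2 and 3 (adjusted p from 0.0535 to 0.143). Both calls were also lost with library size alone, with upper quartile scaling and on log2 RPKM with a pseudocount of 0.1 or 1. A second row with the same symbol in capitals, SLC25A22, had 19 reads over all libraries, 0% of them unique, and 63.2% of the reads of Slc25a22 were placed uniquely, so their division between the rows is uncertain. Slc25a18 had 0.206, 0.322 and 0.112 CPM with oil and 0.174, 0.22 and 0.353 with progesterone in HSD, and 0.256, 1.05 and 0.491 with oil and 0.116, 0.131 and 0.211 with progesterone in BN, too few to test.

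Of the other amino acid carriers, Slc25a38, which imports glycine for the first step of heme synthesis, ranged over 36.6 to 73 CPM and rose in both strains, by 0.60 (SE 0.11, adjusted p = 0.000849) in HSD and 0.40 (SE 0.11, adjusted p = 0.0165) in BN; the BN call was lost without BN oil replicates 2 and 3 or BN progesterone replicates 2 and 3 (adjusted p from 0.0662 to 0.0773). That BN call was also lost on exon reads and on log2 RPKM with a pseudocount of 0.1 or 1. Slc25a29, a carrier of arginine, lysine and other basic amino acids, had 17.5, 14.9 and 12.9 CPM with oil and 17.9, 17.6 and 17.9 with progesterone in HSD, and 11.96, 10.8 and 10.2 with oil and 14.9, 17.6 and 15.9 with progesterone in BN. Neither strain overlapped, and the HSD oil libraries lay above those of BN. Slc25a29 rose in BN, by 0.55 (SE 0.13, adjusted p = 0.00995), and was not called in HSD, at 0.24 (SE 0.13, adjusted p = 0.172); the BN call was lost without BN oil replicate 3 (adjusted p = 0.0559). It was also lost on log2 RPKM with a pseudocount of 0.1 or 1. Slc25a44, a carrier of branched-chain amino acids known from brown fat, ranged over 21.9 to 32.4 and changed by 0.22 (SE 0.12, adjusted p = 0.181) in HSD and 0.20 (SE 0.13, adjusted p = 0.283) in BN, neither called. The single-exon gene Slc25a2, an ornithine carrier, ranged over 0.521 to 2.03. Slc25a20 exchanges acylcarnitine for carnitine and thereby admits fatty acids for oxidation. It ranged over 44.02 to 51.8, the groups overlapped, and its log2 change was -0.09 (SE 0.09, adjusted p = 0.475) in HSD and -0.07 (SE 0.09, adjusted p = 0.646) in BN.

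Of the 9 tested cofactor carriers, 1 rose and 2 fell in HSD, and 1 rose and 1 fell in BN, beside 20.3% higher and 18.7% lower in HSD and 14.0% and 11.8% in BN among all genes tested, so these counts do not stand out from the background. Slc25a32, which brings folate, and by some accounts FAD, into the matrix, had 25.9, 36.97 and 31.97 CPM with oil and 45.6, 39.6 and 58.04 with progesterone in HSD, and 26.6, 27.1 and 24.4 with oil and 43.6, 44.3 and 42.2 with progesterone in BN. All progesterone libraries were higher, and it rose by 0.59 (SE 0.15, adjusted p = 0.00712) in HSD and 0.74 (SE 0.15, adjusted p = 0.0036) in BN. The coenzyme A carrier Slc25a42 had 52.5, 55.1 and 43.2 CPM with oil and 35.5, 38.97 and 33.9 with progesterone in HSD, and 58.95, 46.1 and 51.2 with oil and 36.8, 40.7 and 41.7 with progesterone in BN, all lower with progesterone. It fell in HSD, with a log2 change of -0.48 (SE 0.12, adjusted p = 0.00825), and in BN, with -0.39 (SE 0.12, adjusted p = 0.0324); the BN call was lost without BN oil replicates 1 and 3 or BN progesterone replicates 1 and 2 (adjusted p from 0.0621 to 0.115). Slc25a16, linked to coenzyme A as well from its yeast relative, had 32.9, 31.8 and 32.1 CPM with oil and 36.5, 32.4 and 42.95 with progesterone in HSD, and 32.9, 38.5 and 34.1 with oil and 42.6, 35.95 and 40.1 with progesterone in BN and overlapped in both strains. It was not called, at 0.21 (SE 0.12, adjusted p = 0.178) and 0.17 (SE 0.12, adjusted p = 0.319). Slc25a42 held 60.5% ± 3.87 of the RPKM of both (SD, n = 3) in HSD with oil and 48.7% ± 5.08 with progesterone, and 60.2% ± 4.5 and 48.4% ± 6.44 in BN.

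Slc25a17, which sits in the peroxisomal membrane and carries coenzyme A, FAD and related nucleotides, ranged over 80.3 to 108 CPM. It fell in HSD, with a log2 change of -0.30 (SE 0.08, adjusted p = 0.0113), and was not called in BN, at -0.23 (SE 0.08, adjusted p = 0.0538). On exon reads the HSD change was -0.145 (adjusted p = 0.280) and the treatments overlapped; the call was also lost on log2 RPKM with a pseudocount of 0.1 and with only the 2 groups compared. The glutathione carriers Slc25a39 and Slc25a40 were not called on gene reads. Slc25a39 ranged over 55.4 to 78.9 and changed by -0.18 (SE 0.13, adjusted p = 0.297) in HSD and -0.07 (SE 0.13, adjusted p = 0.732) in BN. Slc25a40 had 82.5% of its reads in introns and overlaps Rundc3b, a gene on the other strand. Its exon reads were 9.34, 9.23 and 9.17 CPM with oil and 15.04, 13.4 and 21.9 with progesterone in HSD, and 7.93, 9.49 and 7.95 with oil and 10.6, 12.4 and 11.9 with progesterone in BN, so progesterone libraries were all higher. Exon reads called Slc25a40 higher in HSD, with a log2 change of 0.84 (adjusted p = 0.00378), and not in BN, at 0.45 (adjusted p = 0.109); all gene reads gave 0.31 (SE 0.21, adjusted p = 0.269) and 0.25 (SE 0.21, adjusted p = 0.432). Slc25a26, the S-adenosylmethionine carrier, ranged over 12.4 to 17.9 and was not called. SLC25A51, the NAD carrier, ranged over 17.1 to 26.6 and was not called; 14.0% of its reads were unique, and the row Mcart1, an older name of the same gene, had group means of 28.4 to 32.8.

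The mitoferrins Slc25a28 and Slc25a37 bring iron into mitochondria for heme and iron-sulfur clusters, Slc25a37 chiefly in red cell precursors. Slc25a28 had 110.2, 125 and 91.7 CPM with oil and 72.3, 86.5 and 75.7 with progesterone in HSD, and 87.9, 78.2 and 89.9 with oil and 62.7, 62.97 and 67.6 with progesterone in BN. Progesterone libraries lay below oil libraries in both strains. It fell in HSD, with a log2 change of -0.48 (SE 0.12, adjusted p = 0.00656), and in BN, with -0.41 (SE 0.12, adjusted p = 0.0244); the BN call was lost without BN oil replicates 1 and 3 or BN progesterone replicates 1 and 2 (adjusted p from 0.0627 to 0.0789). Slc25a37 had 32.6, 26.02 and 23.98 CPM with oil and 26.7, 24.5 and 25.9 with progesterone in HSD, and 24.6, 25.7 and 25.7 with oil and 27.2, 28.7 and 31.9 with progesterone in BN, overlapping in HSD and slightly higher with progesterone in BN. It was not called, at -0.10 (SE 0.12, adjusted p = 0.539) in HSD and 0.21 (SE 0.12, adjusted p = 0.236) in BN. Slc25a28 held 87.1% ± 2.48 of the RPKM of the pair (SD, n = 3) in HSD with oil and 83.4% ± 0.879 with progesterone, and 84.5% ± 0.636 and 77.4% ± 2.98 in BN; the HSD shares overlapped and the BN shares did not.

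In the uncoupling protein branch, Slc25a27, also called UCP4 and known chiefly from brain, had 24.6, 29.5 and 23.7 CPM with oil and 13.7, 18.3 and 17.8 with progesterone in HSD, and 13.8, 15.4 and 17.3 with oil and 9.96, 8.2 and 9.17 with progesterone in BN. Progesterone libraries lay below oil libraries in each strain, and BN libraries below HSD libraries within each treatment. It fell in HSD, with a log2 change of -0.64 (SE 0.15, adjusted p = 0.00432), and in BN, with -0.76 (SE 0.15, adjusted p = 0.00323). Slc25a30, known chiefly from kidney, ranged over 18.5 to 33.05 and rose by 0.42 (SE 0.11, adjusted p = 0.0118) in HSD and 0.43 (SE 0.12, adjusted p = 0.0163) in BN; the BN call was lost without BN oil replicates 1 and 3 or BN progesterone replicates 1 and 2 (adjusted p from 0.0537 to 0.1), and the HSD call of Slc25a30 was lost on log2 RPKM and with library size alone (adjusted p up to 0.076). Slc25a14, also called UCP5, ranged over 15.3 to 27.6 and was not called. Slc25a46 differs from the rest in sitting in the outer membrane, where it takes part in shaping mitochondria. It ranged over 41.8 to 77.5 and rose by 0.53 (SE 0.12, adjusted p = 0.00401) in HSD and 0.37 (SE 0.12, adjusted p = 0.0355) in BN; the BN call was lost without HSD oil replicates 1 and 3, BN oil replicates 1, 2 and 3 or BN progesterone replicates 1, 2 and 3 (adjusted p from 0.0543 to 0.155). That BN call was also lost with upper quartile scaling, on exon reads and on log2 RPKM with a pseudocount of 0.1 or 1.

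Of the other carriers whose substrate is not settled, Slc25a45 had 7.997, 9.28 and 6.82 CPM with oil and 4.43, 6.54 and 4.77 with progesterone in HSD, and 9.02, 9.21 and 7.45 with oil and 5.33, 5.71 and 6.17 with progesterone in BN, lower with progesterone without overlap in either strain. It fell in HSD, with a log2 change of -0.60 (SE 0.18, adjusted p = 0.0201), and in BN, with -0.58 (SE 0.18, adjusted p = 0.0346). The HSD call was lost without HSD oil replicate 2 or HSD progesterone replicates 1 and 3 (adjusted p from 0.0582 to 0.0772) and the BN call was lost without BN oil replicates 1 and 2 or BN progesterone replicates 1, 2 and 3 (adjusted p from 0.0535 to 0.0977). Of its reads 66.6% lay in introns, and its exon reads overlapped between treatments in both strains. Both calls were also lost on exon reads and on log2 RPKM with a pseudocount of 0.1 or 1. Slc25a34 ranged over 1.41 to 4.53 and Slc25a35 over 3.77 to 8.52, neither called. Slc25a54, which ends 4.75 kb before Slc25a24 on the same strand, ranged over 0.164 to 0.715 with 98.9% of its reads in introns. Slc25a47, a liver carrier that lies 14.48 kb from Slc25a29, ranged over 0 to 0.471, too few to test. In the shallowest library 3 reads corresponded to 0.255 CPM, so levels near that value are at the limit of detection at this depth.

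Intron reads gave a second readout of the same libraries, with part of the gene reads in it. They can come from unspliced RNA, but their source was not tested, and genes on the other strand overlap Slc25a13 and Slc25a40, among others. Of the carriers, 39 had enough intron reads for the same test over 13523 genes. On intron reads 6 carriers were higher and 6 lower in HSD, against 13.9% and 13.2% of all genes tested, and 7 were higher and 2 lower in BN, against 8.65% and 9.47%. Of the 18 carriers called on gene reads in HSD, 17 had the same sign on intron reads and 11 the same call, with Slc25a11 the exception in sign. In BN all 15 had the same sign and 7 the same call. Intron reads of Slc25a48, as CPM of the intron reads alone, were 18.2, 13.1 and 9.34 CPM with oil and 224, 170.4 and 266 with progesterone in HSD, and 34.6, 19.7 and 16.4 with oil and 139, 192 and 170.2 with progesterone in BN. Every progesterone library was higher than every oil library of its strain, with log2 changes of 4.02 (SE 0.28, adjusted p = 1.4e-07) in HSD and 2.81 (SE 0.26, adjusted p = 6.46e-06) in BN. For Slc25a5 the intron change was 1.42 (SE 0.21, adjusted p = 0.000102) in HSD and 1.33 (SE 0.23, adjusted p = 0.000672) in BN. The intron change of Slc25a33 was 0.84 (SE 0.19, adjusted p = 0.00339) and 0.88 (SE 0.19, adjusted p = 0.00446). Slc25a23 was lower on intron reads in HSD, at -0.69 (SE 0.11, adjusted p = 0.000272), and not called in BN, at -0.19 (SE 0.11, adjusted p = 0.264), where gene reads called it. Slc25a10 was lower on intron reads in HSD, at -0.67 (SE 0.17, adjusted p = 0.00825), and was not called on gene reads. In BN intron reads called 2 carriers that gene reads did not, Slc25a3, at 0.41 (SE 0.13, adjusted p = 0.0384), and Slc25a34, at 0.95 (SE 0.28, adjusted p = 0.0252). Differences between intron and exon changes were not tested.

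**Figure D5:**
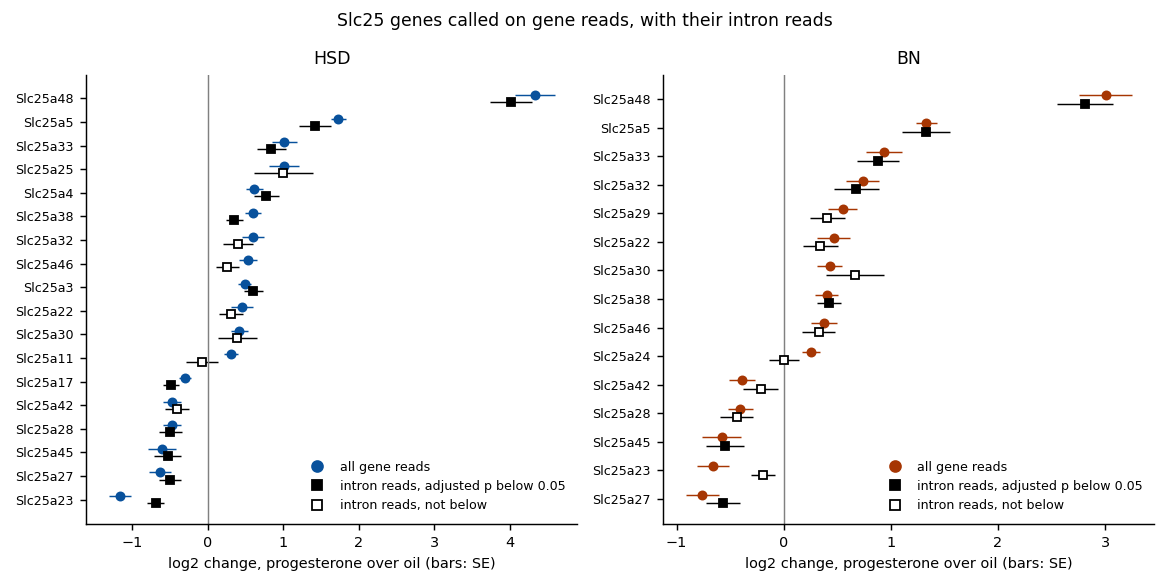
Log2 change from oil to progesterone (x axis) of each carrier called on gene reads (y axis) in HSD and BN, on all gene reads (circles) and on intron reads alone (squares, filled where adjusted p is below 0.05), with SE bars. Slc25a48 lies at 4.33 and 4.02 in HSD and 3.002 and 2.81 in BN on the 2 readouts, and the squares of Slc25a23 lie nearer to 0 than its circles.

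Between strains 4.88% of the tested carriers were called under oil and 4.88% under progesterone, near the shares of all genes tested. Under oil 0 carriers were called higher and 2 lower in BN than in HSD, with 5.69% of all genes called in either direction. These were Slc25a27, with a log2 difference of -0.75 (SE 0.15, adjusted p = 0.0105), and Slc25a10, with -0.60 (SE 0.16, adjusted p = 0.0467). The first call was lost without BN oil replicate 1 (adjusted p = 0.0559) and the second was lost without HSD oil replicates 1 and 2, HSD progesterone replicate 1, BN oil replicates 1, 2 and 3 or BN progesterone replicates 2 and 3 (adjusted p from 0.056 to 0.186). Both were also lost on log2 RPKM with a pseudocount of 0.1 or 1. Under progesterone 0 were higher and 2 lower, with 5.73% of all genes called. Slc25a27 was again lower, at -0.87 (SE 0.15, adjusted p = 0.00549), and Slc25a12 lower, at -0.36 (SE 0.09, adjusted p = 0.0393); the latter call was lost without HSD progesterone replicate 1 or BN progesterone replicates 1 and 3 (adjusted p from 0.085 to 0.115). The Slc25a12 call was also lost on exon reads and on log2 RPKM with a pseudocount of 0.1 or 1. With library size alone, with no filter on low counts and with only the 2 groups compared it was lost too. The Slc25a27 call was lost only on log2 RPKM with a pseudocount of 1. Slc25a48 was higher in BN under oil by 0.96 (SE 0.26, adjusted p = 0.0521), just short of the threshold, and exon reads called it, at 1.21 (adjusted p = 0.0456). Intron reads did not call it, at 0.81 (SE 0.30, adjusted p = 0.137). It was called in 10 of 23 alternatives, exon reads among them, with adjusted p up to 0.193. On exon reads under oil the difference was -0.665 (adjusted p = 0.0876) for Slc25a27 and -0.587 (adjusted p = 0.0933) for Slc25a10, close to those on gene reads but not called. Intron reads called both lower under oil, at -0.81 (SE 0.15, adjusted p = 0.00203) and -0.66 (SE 0.17, adjusted p = 0.0294), and Slc25a12 as well, at -0.47 (SE 0.11, adjusted p = 0.0151). Introns held 54.4%, 21.4% and 45.1% of the gene reads of Slc25a27, Slc25a10 and Slc25a12, so these intron calls are no independent check. The share of all genes called on intron reads between strains was not counted.

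For the strain difference of the progesterone change, edgeR called 0 of 41 carriers, with 4 at an unadjusted p under 0.05 (Slc25a4, Slc25a5, Slc25a23 and Slc25a48) and 0.0510% of all genes called. DESeq2 called 1, Slc25a48. The change had the same sign in both strains for 36 of 41 carriers and for 20 of the 20 called in either strain. It was larger in HSD for 29 of 41 carriers and for 14 of those 20. The 20 were picked by their calls in these same comparisons, which favours a shared sign. The same counts over all genes tested were not made. The labels used here name no lane, day or library batch, so such batches were not tested.

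Other genes of mitochondrial transport moved in part with the carriers. Of 14 genes for import and insertion of carriers, the path by which newly made carriers reach the inner membrane, 13 rose and 0 fell in HSD, with a median log2 change of 0.72, and 8 rose and 0 fell in BN, with 0.49. The highest were Timm8b (1.26, SE 0.21, adjusted p = 0.000573) and Timm10 (1.24) in HSD and Timm10 (1.13) and Tomm40 (0.91) in BN. Timm10 and Timm8b are small chaperones of the space between the membranes, and Tomm40 is the pore of the outer membrane. Of 25 nuclear genes for subunits of oxidative phosphorylation, 22 rose and 0 fell in HSD, with a median of 0.75, and 13 rose and 0 fell in BN, with 0.35. Ndufa4 (1.06) and Cox5a (0.98) changed most in HSD, and Cox5a (0.91) and Atp5b (0.53) in BN. Beside these, 20.3% of all genes tested were higher and 18.7% lower in HSD, with a median of -0.02, and 14.0% and 11.8% in BN, with a median of -0.01.

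Of 20 other mitochondrial transporters 9 rose and 4 fell in HSD, and 8 rose and 2 fell in BN; the lower counts are near the 18.7% and 11.8% of all genes tested, and the higher ones above the 20.3% and 14.0%. Cpt2, which remakes acyl-CoA from acylcarnitine beyond Slc25a20, rose by 1.18 in HSD and 0.94 in BN, while Cpt1a, which makes the acylcarnitine, fell in HSD (-0.87) and was at -0.49 in BN, not called. Tspo rose in HSD (1.02) and was at 0.11 in BN, not called, and Letm1 rose by 0.70 in each strain. The sideroflexins Sfxn5 (-1.01) and Sfxn3 (-0.98) fell most in HSD, and Sfxn3 (-0.71) and Sfxn4 (-0.55) in BN; some of this family are known to carry serine. Carriers of the family under other names included Mtch2, an insertase of the outer membrane, which rose in both strains (1.08 and 0.67), and Ucp2, which fell in HSD (-0.81) and was at -0.25 in BN, not called. Ucp1 and Ucp3 were at or near 0. Of 13 regulators of mitochondrial genes 3 rose and 1 fell in HSD, and 3 rose and 0 fell in BN, with 20.3% of all genes higher in HSD and 14.0% in BN, so the HSD count of higher genes is near the background. Pprc1, a coactivator of nuclear genes for mitochondria, rose by 1.06 in HSD and 1.08 in BN. Myc (0.97) rose and Ppara (-0.55) fell in HSD, and Esrra, the estrogen-related receptor alpha, rose in HSD (0.91) and BN (0.62).

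Promoter letters were compared over the 38 carriers with a RefSeq window, on both strands. The E-box CACGTG was in 5 of 38 windows (Slc25a2, Slc25a31, Slc25a33, Slc25a48 and SLC25A51) and in 6.42% of all 33469. A full cyclic AMP response element, TGACGTCA, was in 2 (Slc25a25 and Slc25a33) and in 1.83% of all. The NRF1 letters GCATGCGC were in 2 (Slc25a13 and Slc25a31; 2.47% of all), and the ETS letters CCGGAAGT in 3 (Slc25a17, Slc25a20 and Slc25a54; 3.81% of all). The letters of an estrogen-related receptor site, TCAAGGTCA, were in 0 (0.433% of all). AGAACA, part of the site that progesterone and glucocorticoid receptors share, was in 3 (Slc25a1, Slc25a10 and Slc25a22; 20.7% of all), and a pair of such letters facing each other 3 bases apart was in 0 (0.0149% of all). CACGTG and TGACGTCA read the same on both strands, and no match of one motif overlapped another. These matches describe letters in a window and are no measure of binding.

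Depth ran from 11763894 to 19033254 gene reads per library, with 19.96% to 25.68% of reads in introns. Markers of the uterus were present throughout, with summed levels of 10170 to 21280 CPM for 9 smooth muscle genes, 4837 to 8238 for 9 stromal genes and 799.5 to 1400.0 for 12 epithelial genes. With progesterone in HSD 0 of 9 smooth muscle markers were called; 2 of 9 stromal markers fell, and 2 of 12 epithelial markers rose and 3 fell. In BN 0 smooth muscle, 1 stromal and 1 epithelial marker rose, and 0, 2 and 3 fell. Among all genes tested 20.3% rose and 18.7% fell in HSD and 14.0% and 11.8% in BN. HSD progesterone replicate 3 stood apart, lowest in smooth muscle markers and highest in oxidative phosphorylation genes; without it 19 carriers were called in HSD, 12 higher and 7 lower. Over all genes tested 5664 were then called in HSD, 2957 higher and 2707 lower, beside 6133 with it. Of 7 macrophage markers 3 rose and 0 fell in HSD, where their sum went from 285.3 to 313.1 with oil to 335.4 to 437.6 with progesterone, and 0 were called in BN. Adipocyte markers were low, with Ucp1, Plin1 and Lep below 1 CPM on average. Of 5 tested, 1 (Adipoq) rose and 1 fell in HSD, and 4, Adipoq among them, rose and 0 fell in BN. The sum over the adipocyte list went from 9.84 to 17.5 up to 35.6 to 37.95 in HSD and from 11.45 to 14.42 up to 23.2 to 33.6 in BN. Red cell markers summed to 255.1 to 370.7 with oil and 522.9 to 550.0 with progesterone in HSD, and to 71.9 to 114.6 and 73.3 to 267.1 in BN, with 0 of 4 called between treatments. Skeletal muscle markers summed to 512.0 to 551.4 with oil and 434.9 to 1011 with progesterone in HSD, highest in HSD progesterone replicate 2, and to 648.4 to 802.9 and 731.6 to 978.2 in BN. Acta1 and Tnnt3 made up most of that sum, while the defining myosins Myh1, MYH2 and Myh4 were at or near 0; of 5 tested, 1 rose and 1 fell in HSD and 0 rose and 1 fell in BN. Between strains, 4 of 12 epithelial markers were lower in BN under oil and 2 under progesterone, with 0 higher. Of 4 tested red cell markers 2 and 3 were lower, with 0 higher. Stromal and smooth muscle markers had 0 calls between strains, and each other marker list had at most 1 in a direction. Among all genes tested 5.69% and 5.73% were called. The part of any of these shifts in the carrier changes, or in the carrier differences between strains, was not tested.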

How the data were processed

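The authors deposited, per library, gene, exon and intron read counts and RPKM, per the file headers; build Rnor_5.0 is named in the submitters' processing notes, and no source used here gives the aligner, counter or strand setting. Libraries were made from polyA RNA, per the labels' protocols. Recomputing the RPKM showed exon reads over exon length and total gene reads, except for Slc25a6, listed with 0 exons and 0 exon reads, whose RPKM of up to 0.0909 come from its gene reads. Total gene read counts (11763894 to 19033254 per library) entered edgeR 4.0.16 in R 4.3.3: TMM scaling, filterByExpr (15697 of 26312 genes), 1 quasi-likelihood fit over 12 libraries in 4 groups with 8 residual degrees of freedom, and Benjamini-Hochberg adjustment over all tested genes with a threshold of 0.05. CPM are TMM-scaled; exon CPM are relative to gene reads. SE is the log2 change divided by the square root of F. The fit was tested on simulated data. Intron reads were fitted alike, an analysis chosen after gene values were seen. Alternatives used DESeq2 1.42.0 and limma 3.58.1 and other scalings, filters and reads, and left out each library in turn. Where a call is given as lost without several libraries, leaving out any 1 of them alone ended it. Promoter windows are RefSeq's, on GRCr8. The edgeR p-values set a difference of group means against the spread between animals, pooled over the 4 groups and drawn towards that of other genes. Members, gene lists and motifs were chosen with earlier results of these data known. Full values are given for the 8 largest called changes in each progesterone comparison, carriers called between strains, the 4 with the highest RPKM and substrate pairs with a called member; from the lists, for the 2 largest called changes in each direction, with Cpt1a, Esrra, Adipoq and the sentences on low genes chosen after their values were seen. 1 further symbol of the family and the values of 1 tested member are not reported here.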

Additional observations from a re-analysis of the deposited data

How the results depend on the processing

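No carrier called in any comparison changed direction under any alternative. In HSD the 18 calls became 14 to 21, and 13 of the 18 genes were called in every alternative. Calls over all genes tested moved as well, in HSD from 6133 to between 4172 and 6583. Of the 15 genes called in BN 6 were called in every alternative, and the count was 21 with limma voom, 9 on log2 RPKM with a pseudocount of 0.1 or 1 and 7 to 18 with 1 library left out. Over all genes the BN calls went from 4045 to 6739 with limma voom and to 3310 and 3323 on log2 RPKM. With 1 library left out they ran from 2606 to 5055. For BN versus HSD under oil the 2 calls became 4 with the DESeq2 Wald test, 5 with limma voom, 1 on exon reads, 1 on log2 RPKM with a pseudocount of 0.1, 0 with a pseudocount of 1, and 0 to 5 with 1 library left out (0 without BN oil replicate 1, 5 without HSD oil replicate 3). Over all genes the calls under oil went from 893 to 1294 with DESeq2 and 1964 with limma voom. They were 538 on exon reads, 489 and 554 on log2 RPKM, and 436 to 1327 with 1 library left out. Under progesterone the 2 became 4 with DESeq2, 1 with no filter on low counts, 1 on log2 RPKM with a pseudocount of 1, 1 with only the 2 groups compared, and 1 to 3 with 1 library left out. Over all genes the 900 calls under progesterone became 1519, 820, 478 and 409 in the first 4 of these settings. With 1 library left out they ran from 341 to 1515. For the strain difference of the change DESeq2 called 1 where edgeR called 0, and over all genes 119 where edgeR called 8. The cause was not tested. Carriers below 1 CPM are limited by depth. No paired analysis was possible because the replicate numbers follow accession order and join no animals across groups.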
